A study of Mus musculus with 6 samples.

Results

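Whole mouse thymus was examined for 8 genes that mark the passage of thymocytes through positive selection, maturation and exit: Cd69, Cd5, Itm2a, Cd24a, S1pr1, Klf2, Nr4a1 and Cd2. They were taken by symbol from a table of 24054 genes, and all 8 members had a row and passed the filter on low counts that left 16096 genes. Polyadenylated RNA was sequenced from 3 control and 3 K5-rtTA:TetO-RANKL thymuses. In the latter the keratin 5 promoter, active in basal and medullary epithelial cells, drives the doxycycline-dependent activator rtTA, which induces a RANKL transgene, so that RANKL, a cytokine of the TNF family, comes from those cells. Both groups were given doxycycline in food and water, and the controls were described as monogenic, without saying which transgene they carried. The schedule is given as 1 week from 8 weeks of age in one description and as 2 weeks from 9 weeks of age in another, and strain and sex are not given. Whether each library is a separate animal is not stated, so p-values measure only how far these libraries differ, which may be technical. Changes are given throughout as RANKL over control.

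In the thymic cortex, precursors that carry both CD4 and CD8 are tested for weak recognition of self. A receptor signal switches on immediate-early genes such as Nr4a1 and then surface proteins such as CD69 and CD5, and the cells that pass become single-positive thymocytes and move to the medulla. As they mature there they lose CD24 and CD69 and switch on the transcription factor KLF2, which in turn promotes expression of S1PR1, the receptor that guides cells out along a gradient of sphingosine 1-phosphate. CD69 binds S1PR1 and takes it off the cell surface, so the pair is known for opposite behaviour in maturing thymocytes.

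Libraries held 18254870 to 25357060 counted reads, so each of the 8 genes was measured with 258 to 14532 reads in every library. Levels are given as CPM, the usual read counts scaled to a common library size, here with TMM factors. The labelled tissue was checked against its markers: all 4 genes of thymic epithelium, Foxn1, Psmb11, Prss16 and Aire, and all 10 genes of the T lineage had reads, with T lineage genes summing to 7437 to 9404 CPM in control and 460.2 to 1274 CPM in RANKL libraries. The T cell receptor complex (Cd3d, Cd3e, Cd3g and Cd247) went from 1985 to 2974 CPM in control to 159.1, 191.4 and 417.1 CPM in RANKL replicates 1, 2 and 3. RANKL replicate 3 thus held the most T cell transcripts of its group. All 8 markers of double-positive thymocytes, the cells that undergo positive selection, were lower, with a median log2 fold change of -4.80 and sums of 8652 to 9791 CPM in control and 182.2, 400.1 and 828.3 CPM in RANKL replicates 1, 2 and 3. The thymic epithelial genes split. Psmb11 and Prss16, of the cortical epithelium that presents selecting peptides, stood at -5.95 ± 0.67 and -4.39 ± 0.64 (-7.31 and -5.604 without RANKL replicate 3, edgeR adjusted p between 1.11e-06 and 0.000349). Aire, of medullary epithelium, was higher by 3.85 ± 0.35, and Foxn1 by 0.86 ± 0.26, a call lost without control replicate 2 or 3 (edgeR adjusted p = 0.0769 and 0.0664). In bulk RNA, fewer cells of a type and less RNA per cell cannot be told apart.

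Of the 8 genes, 5 were lower, 1 was higher and 2 were not called at an adjusted p under 0.05 (edgeR quasi-likelihood test, Benjamini-Hochberg over all genes tested). Itm2a, Cd5 and Cd2 fell by 2.56 to 3.49 on the log2 scale, Cd69 fell by 1.65 and Nr4a1 by 0.95, Cd24a rose by 0.54, and Klf2 and S1pr1 stood at -0.10 and 0.03. Among all genes tested 63.4% were called, with 29.6% lower and 33.8% higher, and the groups did not overlap for 70.1%. Of the 8 genes, 4 had groups that did not overlap. The median over all genes tested was a log2 fold change of -0.02, with 90% of genes between -1.75 and 3.85.

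**Figure D1:**
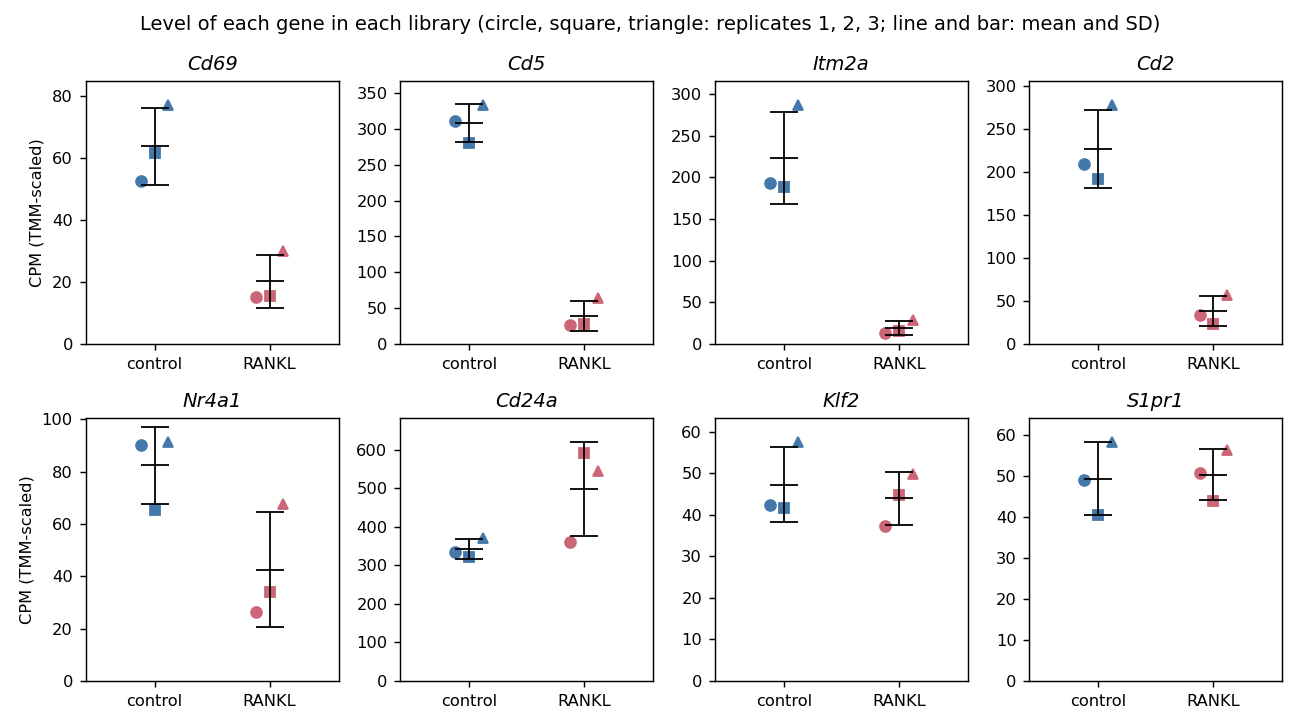
TMM-scaled CPM (vertical axes, each from 0) of the 8 genes in the 3 control and 3 RANKL libraries, with replicates 1, 2 and 3 as circles, squares and triangles and the mean and SD in black. The groups are apart for Cd69, Cd5, Itm2a and Cd2, overlap in part for Nr4a1 and Cd24a, and lie over each other for Klf2 and S1pr1.

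The proximal promoters of 4 of the 8 genes, from RefSeq on GRCm38.p6, are shown. The promoter set used here held no window for Cd69, Cd24a, S1pr1 or Cd2. The genes shown had different outcomes: Cd5 and Itm2a fell most, Nr4a1 fell less, and Klf2 was not called. Each run is the 250 bases before the start used in that promoter table, 5′ to 3′ on the strand of the gene. For Nr4a1 that start lies inside the gene span given below, which begins further upstream, and for Cd5 the window overlaps the upstream end of the gene span, so neither window lies before the outermost annotated start. The windows are chr19:10738975-10739224 on the minus strand for Cd5, chrX:107403361-107403610 on the minus strand for Itm2a, chr15:101266596-101266845 on the plus strand for Nr4a1 and chr8:72318812-72319061 on the plus strand for Klf2.
Cd5: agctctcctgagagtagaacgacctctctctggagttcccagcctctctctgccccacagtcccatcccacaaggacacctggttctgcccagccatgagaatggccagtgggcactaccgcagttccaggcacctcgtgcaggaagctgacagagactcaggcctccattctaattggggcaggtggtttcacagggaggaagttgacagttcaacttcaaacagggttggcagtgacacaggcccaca
Itm2a: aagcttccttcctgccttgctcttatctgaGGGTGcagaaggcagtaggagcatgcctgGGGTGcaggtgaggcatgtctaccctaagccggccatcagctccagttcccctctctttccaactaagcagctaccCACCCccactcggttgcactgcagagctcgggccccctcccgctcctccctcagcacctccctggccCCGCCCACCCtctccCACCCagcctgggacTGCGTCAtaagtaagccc
Nr4a1: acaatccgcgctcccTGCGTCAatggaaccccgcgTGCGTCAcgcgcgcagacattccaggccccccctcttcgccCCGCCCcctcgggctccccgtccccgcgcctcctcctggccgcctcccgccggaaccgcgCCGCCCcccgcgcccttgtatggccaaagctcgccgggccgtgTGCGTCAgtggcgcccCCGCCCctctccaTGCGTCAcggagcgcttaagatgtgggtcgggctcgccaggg
Klf2: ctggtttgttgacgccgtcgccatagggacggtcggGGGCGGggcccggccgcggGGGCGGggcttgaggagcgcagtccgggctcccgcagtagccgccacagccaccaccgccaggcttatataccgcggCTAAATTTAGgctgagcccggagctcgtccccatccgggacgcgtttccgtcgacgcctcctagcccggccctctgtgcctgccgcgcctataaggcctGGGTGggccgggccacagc
Capitals mark matches, on either strand, to the motifs searched: CACCC, the box bound by KLF factors, GGGCGG, the GC box, TGTGGT, the RUNX core, GTAAACA, a forkhead site, TGACGTCA, the cyclic AMP response element, TATAAA, the CArG box of serum response factor and the MEF2 site, and TGCGTCA, a near match of the cyclic AMP response element that was added after the sequences were seen. Neighbouring matches can overlap, as the GGGCGG and CACCC matches of Itm2a do.

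The Nr4a1 window held TGCGTCA 4 times, starting 235, 215, 71 and 42 bases before the start, and GGGCGG 3 times. Of 32851 promoter windows of this length, 1.75% held TGCGTCA at least once and 32.7% held GGGCGG. The Klf2 window held 1 MEF2 site, 118 bases before the start, a motif found in 2.92% of windows, and 2 GGGCGG and 1 CACCC. The Itm2a window held CACCC 5 times, GGGCGG 1 time and TGCGTCA 1 time, 18 bases before the start, and 52.0% of all windows held CACCC. The Cd5 window held none of these motifs. The windows also differed in base composition, with 34 CpG in Nr4a1, 29 in Klf2, 6 in Itm2a and 3 in Cd5, beside a median of 6 over all windows. A match is a run of letters and was not tested as a binding site.

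Nr4a1 encodes the nuclear receptor NUR77, an immediate-early target of T cell receptor signals (Entrez gene 15370, chromosome 15, 101253902 to 101274795 in GRCm38). It stood at 90.3, 65.4 and 91.5 CPM in control replicates 1, 2 and 3 and at 26.3, 34.0 and 67.5 CPM in RANKL replicates 1, 2 and 3. RANKL replicates 1 and 2 lay below every control library, while RANKL replicate 3 lay just above control replicate 2, so the groups overlapped. The log2 fold change was -0.95 ± 0.32 (SE; edgeR adjusted p = 0.0251), with a 95% interval of -1.67 to -0.24. The call was lost without RANKL replicate 1 (-0.66, adjusted p = 0.0742), RANKL replicate 2 (-0.80, adjusted p = 0.0793), control replicate 1 (-0.90, adjusted p = 0.0680) or control replicate 3 (-0.89, adjusted p = 0.0767), and the size grew to -1.41 without RANKL replicate 3. NUR77 is also made by activated myeloid cells, and all 7 macrophage markers rose, from a sum of 859.0 to 1079 CPM in control to 2052 to 2929 CPM in RANKL, the lowest of these in replicate 3. The part of those cells in the Nr4a1 level was not tested.

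Cd69 encodes a C-type lectin-like early activation antigen that appears on thymocytes receiving a selection signal (Entrez gene 12515, chromosome 6, 129267324 to 129275375). Its transcript was at 52.8, 61.8 and 77.3 CPM in the control libraries and at 15.2, 15.7 and 30.3 CPM in the RANKL libraries. The highest RANKL library, replicate 3, lay below the lowest control library. The mean fell from 63.9 ± 12.4 to 20.4 ± 8.54 CPM (SD, n = 3 per group), a log2 fold change of -1.65 ± 0.28 (edgeR adjusted p = 0.000750). Its 95% interval was -2.28 to -1.01, beside -3.69 to -2.22 for Cd5, -4.18 to -2.79 for Itm2a and -3.25 to -1.86 for Cd2.

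Cd5, a scavenger-receptor family protein that dampens T cell receptor signalling and whose level follows the strength of the selecting signal (Entrez gene 12507, chromosome 19, 10718107 to 10739026), was at 311.4, 280.7 and 333.1 CPM in control. In RANKL it was at 26.8, 28.5 and 63.8 CPM. All RANKL libraries lay far below the controls, a 7.77-fold difference of means and a log2 fold change of -2.96 ± 0.33 (edgeR adjusted p = 5.63e-05). Itm2a, a membrane protein of the BRICHOS family that is switched on during positive selection (Entrez gene 16431, chromosome X, 107397195 to 107403360), was at 193.5, 188.4 and 286.7 CPM in control and at 13.9, 16.4 and 29.4 CPM in RANKL. It had the largest decrease of the 8 genes, 11.2-fold between means, with a log2 fold change of -3.49 ± 0.31 (edgeR adjusted p = 1.93e-05), and 0.516% of all genes tested had a lower value. Cd2, an adhesion receptor of T cells that binds CD48 (Entrez gene 12481, chromosome 3, 101275908 to 101287939), was at 209.3, 192.2 and 277.9 CPM in control and at 34.2, 23.9 and 57.4 CPM in RANKL. Its log2 fold change was -2.56 ± 0.31 (edgeR adjusted p = 9.51e-05), and again no RANKL library reached a control library.

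B cells can also carry CD5 and CD2, and natural killer cells CD2. Of 6 B cell markers 0 were called by edgeR, though Ms4a1 had an unadjusted p = 0.0403 and was the 1 marker called by limma-voom and by DESeq2, with sums of 119.9 to 127.9 CPM in control and 65.3 to 138.1 CPM in RANKL. Of 5 natural killer cell markers 4 were tested and 1, Eomes, was higher, with sums of 22.7 to 29.9 and 19.7 to 30.4 CPM, and Klra8 was at 0 reads in all 6 libraries. Their part in the Cd5 and Cd2 levels was not tested.

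Cd24a encodes the heat-stable antigen, a small glycolipid-anchored sialoglycoprotein that is abundant on immature thymocytes and lost as single-positive cells mature (Entrez gene 12484, chromosome 10, 43579169 to 43584265). It was at 334.8, 321.6 and 371.8 CPM in control and at 360.6, 590.9 and 545.5 CPM in RANKL. RANKL replicates 2 and 3 lay above all controls, while replicate 1 lay within their range. The log2 fold change was 0.54 ± 0.21 (edgeR adjusted p = 0.0432), close to the threshold, and its 95% interval in folds ran from 1.05 to 2.01. The call was lost without control replicates 1, 2 or 3 (adjusted p = 0.104, 0.133 and 0.0647) and without RANKL replicates 2 or 3 (0.148 and 0.1003), and was kept without RANKL replicate 1, at 0.77 (adjusted p = 0.00728). With a term for the number range of the sample titles, whose meaning is not given, it was 0.39 (adjusted p = 0.147). A share of 3.90% of the 50-base stretches of the longest annotated Cd24a transcript also occurs in the gene Gm6212, so some reads may be split between them.

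CD24 is made by epithelium, neutrophils and red cell precursors as well as by thymocytes. Of 7 epithelial markers 6 rose, with Krt18 not called, and their sum went from 1333 to 1606 CPM to 5165 to 6538 CPM. All 7 neutrophil markers rose, from a sum of 14.1 to 42.7 CPM to 1851 to 4130 CPM. In RANKL replicate 2, which had the most Cd24a reads, both sums were at their highest. Replicates 1 and 3 differed: the epithelial sum was 5287 CPM in replicate 1 and 5165 CPM in replicate 3. The neutrophil sum was 1851 and 2181 CPM, and Cd24a 360.6 and 545.5 CPM. Such orders rest on 3 RANKL libraries and do not tell which cells the Cd24a reads came from. Of 5 erythroid markers 3 were tested and 1 was higher, and the sum stayed between 4.11 and 31.8 CPM over all libraries. The part of these cells in the Cd24a level was not tested.

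Klf2 encodes a zinc finger factor of quiescent and emigrating T cells and of endothelium under flow (Entrez gene 16598, chromosome 8, 72319062 to 72321654). It was at 42.3, 41.7 and 57.6 CPM in control and at 37.2, 44.9 and 49.95 CPM in RANKL. The groups lay over each other, with means of 47.2 ± 9.00 and 44.0 ± 6.42 CPM (SD, n = 3 per group) and a log2 fold change of -0.10 ± 0.19 (edgeR adjusted p = 0.659). S1pr1, the receptor for sphingosine 1-phosphate needed for exit from the thymus (Entrez gene 13609, chromosome 3, 115710433 to 115715055), was at 49.1, 40.7 and 58.5 CPM in control. In RANKL it was at 50.8, 44.1 and 56.5 CPM. Here too the groups lay over each other, with means of 49.4 ± 8.91 and 50.4 ± 6.22 CPM and a log2 fold change of 0.03 ± 0.18 (edgeR adjusted p = 0.897). The 95% intervals of the fold were 0.693 to 1.25 for Klf2 and 0.769 to 1.36 for S1pr1, so changes within those bounds were not excluded.

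Endothelium is rich in both Klf2 and S1pr1. Of 10 endothelial markers 7 rose and 3, Pecam1, Tek and Cldn5, were not called, with a median log2 fold change of 1.04. Their sum went from 298.9, 232.1 and 252.8 CPM in control replicates 1, 2 and 3 to 379.8, 448.2 and 339.9 CPM in RANKL replicates 1, 2 and 3. None of the 10 was at 0. The T lineage list moved the other way, with all 10 genes lower and a median of -3.22. How much of the Klf2 and S1pr1 mRNA came from each cell type was not tested.

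**Figure D2:**
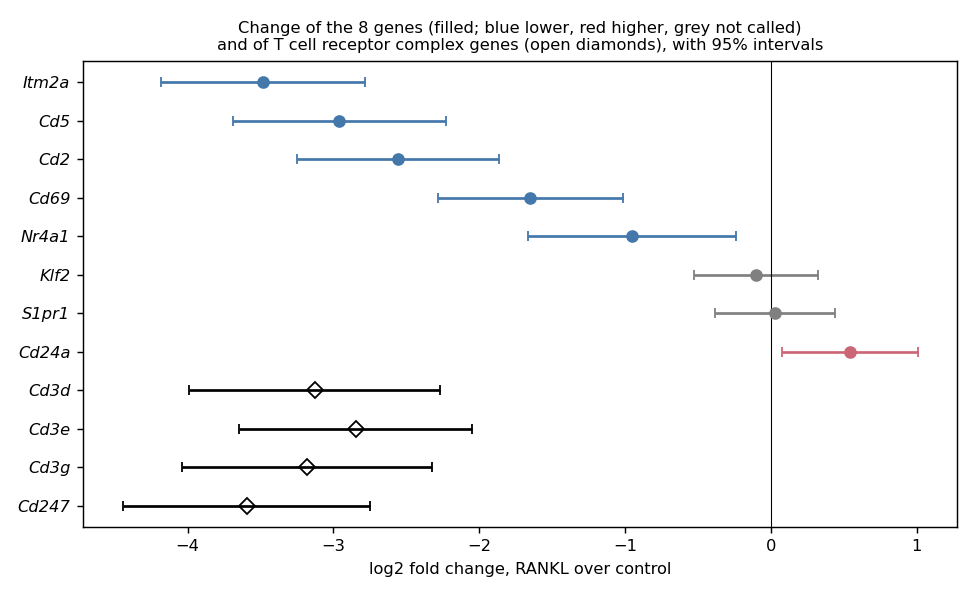
Log2 fold change, RANKL over control, of the 8 genes (filled points) and of 4 genes of the T cell receptor complex (open diamonds), with 95% intervals from the edgeR fit. Itm2a and Cd5 lie within the span of the receptor complex genes, -3.59 to -2.85, Cd2 lies just above it at -2.56, Cd69 and Nr4a1 lie nearer to 0, and Klf2, S1pr1 and Cd24a lie near or above 0.

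Within each group the 8 genes tended to be ordered alike. Control replicate 3 was the highest control library for all 8 genes, and control replicate 2 the lowest for 7 of them. RANKL replicate 3 was the highest RANKL library for 7 genes, the exception being Cd24a, and RANKL replicate 1 the lowest for 6. The ratio of the highest to the lowest RANKL library was 2.57 for Nr4a1, 2.40 for Cd2, 2.38 for Cd5, 2.11 for Itm2a and 1.99 for Cd69. It was 1.64 for Cd24a, 1.34 for Klf2 and 1.28 for S1pr1. The genes that fell therefore varied more between RANKL libraries than those that did not, and more than between control libraries, where the ratios ran from 1.16 to 1.52. The receptor complex sum was likewise highest in control replicate 3 and RANKL replicate 3, and its part in this order was not tested.

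Per kilobase of annotated exon, the order of levels in control was Cd2 (196.4 CPM per kb), Cd24a (168.4), Itm2a (127.8), Cd5 (98.7), Cd69 (37.9), Nr4a1 (30.8), Klf2 (25.6) and S1pr1 (16.2). Among neighbours, the library ranges of Cd2 and Cd24a, of Cd24a and Itm2a, of Cd69 and Nr4a1 and of Nr4a1 and Klf2 overlapped. All genes were measured in the same libraries, so overlapping ranges do not show that their levels were alike. Within every control library Cd2 stood above Cd24a, Cd24a above Itm2a and Nr4a1 above Klf2. The order of Cd69 and Nr4a1 differed between control libraries. In RANKL the order began with Cd24a (245.2 CPM per kb), whose range lay above all others, followed by Cd2 (33.4), Klf2 (23.8) and S1pr1 (16.6). Nr4a1, Cd5, Cd69 and Itm2a came last, at 15.9, 12.7, 12.1 and 11.4 CPM per kb, with overlapping ranges. The range of S1pr1 overlapped those of all 4. The range of Klf2 overlapped those of Cd2, Nr4a1 and Cd5, and the range of Nr4a1 also overlapped that of Cd2.

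Each gene was next set against the summed CPM of the T cell receptor complex in the same library, as a measure per unit of T cell mRNA. Itm2a was 9.53%, 9.49% and 9.64% of the complex sum in control and 8.73%, 8.58% and 7.04% in RANKL, so it was slightly lower in all 3 RANKL libraries, at -0.24 on the log2 scale. That direction turned with the reference, to 0.04 against the summed T lineage list and 1.03 against the summed double-positive thymocyte list. Cd5 was 15.3%, 14.1% and 11.2% of the sum in control and 16.8%, 14.9% and 15.3% in RANKL, and the groups overlapped. Its log2 difference was 0.22 against the complex, 0.51 against the T lineage list and 1.495 against the double-positive list. Cd2 was 10.3%, 9.68% and 9.34% in control and 21.5%, 12.5% and 13.8% in RANKL. The fold of the group means was 1.58 for Cd2, and RANKL replicate 1 stood well above the other 2 libraries of its group. The log2 difference of Cd2 was 0.66 against the complex, 0.95 against the T lineage list and 1.94 against the double-positive list.

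The other 5 genes were higher relative to the complex in every RANKL library. Cd69 went from 2.60%, 3.11% and 2.60% of the complex sum to 9.57%, 8.20% and 7.25%, a 3.004-fold higher ratio, and Nr4a1 from 4.45%, 3.29% and 3.08% to 16.5%, 17.8% and 16.2%, or 4.72-fold. In both, the RANKL libraries lay close together although their CPM differed. Klf2 went from 2.08%, 2.10% and 1.94% to 23.4%, 23.5% and 12.0%, or 9.18-fold, and S1pr1 from 2.42%, 2.05% and 1.97% to 31.9%, 23.0% and 13.6%, or 10.1-fold. Cd24a went from 16.5%, 16.2% and 12.5% to 226.6%, 308.8% and 130.8%. All 5 sizes depend on the reference: against the double-positive list, which fell further than the complex, the log2 differences were 2.86 for Cd69, 3.515 for Nr4a1, 4.47 for Klf2, 4.61 for S1pr1 and 5.08 for Cd24a, beside 1.59, 2.24, 3.20, 3.33 and 3.81 against the complex. RANKL replicate 3, with the most receptor complex mRNA of its group, had the lowest RANKL ratio of all 5 genes and of Itm2a. It did not have the lowest ratio of Cd5 or Cd2.

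The groups did not overlap for 7 of the 8 ratios, 6 of them higher and 1, Itm2a, lower in RANKL. For each of those 7 a two-sided exact permutation test over the 6 libraries gave p = 0.10, the smallest that 3 libraries against 3 can give, and the Cd5 ratio gave an exact p = 0.30. Adjusted over the 8 ratios the 7 exact p-values became 0.114, so none passed the threshold. A fit of all genes with the receptor complex counts as library size put Cd69, Nr4a1, Klf2, S1pr1 and Cd24a higher (edgeR adjusted p between 1.60e-09 and 0.00487) and left Cd2, Cd5 and Itm2a uncalled (edgeR adjusted p = 0.203, 0.705 and 0.670). On that scale 96.7% of all genes were higher, so a rise against the receptor complex was shared with nearly every gene tested.

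**Figure D3:**
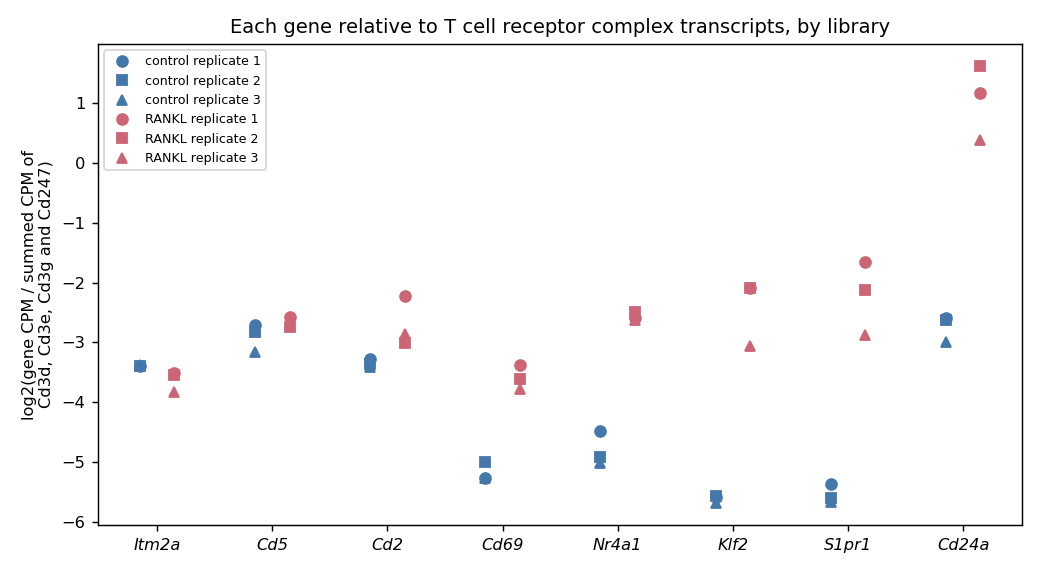
Log2 of the CPM of each gene over the summed CPM of Cd3d, Cd3e, Cd3g and Cd247 (vertical axis) in each control (blue) and RANKL (red) library, with genes ordered by the difference of group means. The groups lie close for Itm2a, Cd5 and Cd2 and move apart from Cd69 (1.59) to Cd24a (3.81 on the log2 scale).

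Ratios between members were examined for 4 pairs that were chosen after their values were seen. S1pr1 reads were 0.930, 0.658 and 0.757 times the Cd69 reads in control and 3.33, 2.81 and 1.87 times in RANKL. That is a 3.35-fold higher ratio in RANKL, with no overlap between groups (two-sided exact permutation p = 0.10, the smallest possible, 0.133 adjusted over the 4 pairs). The ratio of Klf2 to S1pr1 reads was 0.863, 1.03 and 0.985 in control and 0.733, 1.02 and 0.884 in RANKL, which overlapped (exact p = 0.60). Cd24a reads were 1.075, 1.15 and 1.12 times the Cd5 reads in control and 13.5, 20.7 and 8.56 times in RANKL. The ratio of Cd69 to Nr4a1 reads was 0.584, 0.945 and 0.845 in control and 0.580, 0.462 and 0.448 in RANKL. This last ratio was lower in all RANKL libraries, at -0.65 on the log2 scale, though RANKL replicate 1 lay just below control replicate 1. For these last 2 pairs the exact permutation test also gave p = 0.10, or 0.133 adjusted over the 4 pairs.

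The genes whose profiles lay nearest to those of the members were sought among 13378 genes, by the Euclidean distance of centred log2 CPM over the 6 libraries. Nearest to Cd5 were Il16 (distance 0.227), Zap70, a kinase of the T cell receptor pathway (0.275), and Cd3e (0.294). Nearest to Itm2a were Ramp1 (0.242), Skap1 (0.282), an adaptor of T cell adhesion, and Nim1k (0.358), and to Cd2 Plekhb1 (0.344), Arhgap15 (0.401) and Sept6 (0.404). Nr4a1 lay nearest to Timd4 (0.154), Cd7 (0.411) and Fam65b (0.489), and Cd69 to Armcx6 (0.285), Klhl6 (0.332) and Fam189b (0.341). Klf2 lay nearest to Cradd (0.0930), Ptgr2 (0.122) and Atp6v1d (0.123), S1pr1 to Tmem123 (0.127), Slc25a1 (0.173) and Shisa5 (0.193), and Cd24a to Mcoln2 (0.237), Fhl3 (0.267) and Id2 (0.275). Distance grows with the size of a change, so distances of different members are not compared.

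Of 75 other genes of selection, maturation and exit found in the table, in 6 lists, 72 were tested, of which 19 were higher, 33 lower and 20 not called, with a median log2 fold change of -0.51. The background shares of higher and lower genes are the 33.8% and 29.6% given above. In the list of positive selection signalling 10 of 16 were lower, 1 was higher and 5 were not called, with a median of -1.43. The double-positive thymocyte and cortical epithelial genes given above were lower beside it, and their part was not tested. Rasgrp1, which links the receptor to RAS, fell from 574.9 ± 39.3 to 72.8 ± 26.8 CPM, and Cd6, a close relative of Cd5, from 388.6 ± 38.8 to 51.3 ± 22.2 CPM. Tespa1 and Themis, adaptors needed for positive selection, had log2 fold changes of -3.58 and -4.86, and of -4.16 and -5.598 without RANKL replicate 3 (edgeR adjusted p between 1.67e-06 and 5.00e-05).

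The immediate-early genes of receptor signals differed among themselves. Egr1, a zinc finger factor induced by the same signals as Nr4a1, was at 146.9, 96.1 and 102.8 CPM in control and 45.8, 68.3 and 68.0 CPM in RANKL, without overlap, a log2 fold change of -0.92 ± 0.22 (edgeR adjusted p = 0.00493). Nr4a2, a relative of Nr4a1, was higher, at 0.99 ± 0.39 (edgeR adjusted p = 0.0483), from 2.06 ± 0.466 to 4.08 ± 1.5 CPM with overlapping groups. That call was lost when any library except RANKL replicate 1 was left out (adjusted p from 0.0538 to 0.148). Egr2, Egr3 and Nr4a3 were not called, at 0.37, -0.01 and 0.01, though Egr2 was called without RANKL replicate 1 (0.63, edgeR adjusted p = 0.0334). The other genes of the list that were not called were Bcl2 and Bcl2l11, which act on thymocyte survival, at -0.16 and -0.36. These 5 uncalled genes were named after their values were seen.

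Among 12 genes of single-positive maturation 10 were tested, of which 4 were higher, 2 lower and 4 not called, with a median of -0.20. H2-Q6 and H2-Q7 had 0 reads in every library. Genes of that region have near-identical copies between which reads can be split, but why these had no reads was not tested. B2m and H2-K1, the light and a heavy chain of MHC class I, rose by 1.59 ± 0.22 and 1.58 ± 0.22, and both are made by nearly all cell types. Slfn1 and Cd55 were also higher, at 1.08 ± 0.24 and 0.98 ± 0.24 (edgeR adjusted p = 0.00346 and 0.00493). Ifngr1 was lower, at -1.44 ± 0.16 (edgeR adjusted p = 6.68e-05). Ccr7, the chemokine receptor for entry into the medulla, was at 137.8, 92.4 and 160.2 CPM in control and 95.1, 101.9 and 135.0 CPM in RANKL, with overlapping groups (-0.23, edgeR adjusted p = 0.386). Il7r, the interleukin 7 receptor, was at -0.16 (edgeR adjusted p = 0.482).

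Of 11 genes that act upstream of Klf2 or belong to its family 5 were lower, 2 higher and 4 not called, with a median of -0.57, which was -0.26 without control replicate 1 and -0.31 without RANKL replicate 3. Foxo1, an activator of Klf2 in T cells, was at -0.21 ± 0.16 (edgeR adjusted p = 0.283), with 79.1 ± 11.6 CPM in control and 68.5 ± 4.30 CPM in RANKL. Of 3 genes of the MEF2 family, Mef2d and Mef2a fell by 1.57 and 0.73 and Mef2c was not called, at 0.24, a value named after it was seen. Map2k5, a kinase that activates the MEF2 route, fell by 0.57 (for Mef2d, Mef2a and Map2k5, edgeR adjusted p = 0.000522, 0.00231 and 0.00822). Klf13 fell by 1.63. Klf4, a relative of Klf2 that differentiating epithelium and myeloid cells express, rose from 12.3 ± 3.21 to 106.9 ± 35.9 CPM, and Klf6 rose by 1.18 ± 0.15. The epithelial and macrophage markers rose beside them, as given above, and their part was not tested.

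Of 12 genes of sphingosine 1-phosphate receptors and of migration 8 were lower, 3 higher and 1 not called, with a median of -1.09. The receptors split. S1pr4, a receptor of lymphocytes and other blood cells, was at 42.8, 39.1 and 49.2 CPM in control and 15.99, 10.5 and 24.1 CPM in RANKL (-1.37 ± 0.28, edgeR adjusted p = 0.00197), without overlap. S1pr2 and S1pr3, which vessels and stroma use, and S1pr5, of natural killer cells, rose by 0.86 ± 0.20, 1.27 ± 0.19 and 1.71 ± 0.39. S1pr5 was low, at 1.13 ± 0.327 and 3.68 ± 1.01 CPM. Ccr9, a chemokine receptor gene, had a log2 fold change of -4.16, or -4.88 without RANKL replicate 3. Coro1a and Stk4, both needed for thymocyte exit, stood at -2.01 and -1.53, and the chemokine receptor gene Cxcr4 at -1.44 (edgeR adjusted p = 9.70e-05, 0.000107 and 0.000497).

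Of 10 genes that make, carry or break down sphingosine 1-phosphate 9 were tested, of which 6 were higher, 0 lower and 3 not called, with a median of 1.38. In edgeR 0 were lower also at an unadjusted p under 0.05, and limma-voom and DESeq2 called 0 lower. Sphk1, a kinase that makes the lipid, was at 17.6, 10.4 and 13.6 CPM in control and 68.2, 48.0 and 63.8 CPM in RANKL (2.11 ± 0.23, edgeR adjusted p = 5.65e-05). Spns2, its exporter in endothelium, was at 10.4, 11.1 and 10.03 CPM in control and 65.4, 97.8 and 41.5 CPM in RANKL (2.70 ± 0.29, edgeR adjusted p = 5.07e-05). Sgpp1, a phosphatase of the lipid, and Ppap2a, a lipid phosphatase now named Plpp1, rose by 1.38 ± 0.19 and 1.40 ± 0.20. Sgpl1, the lyase that degrades the lipid and keeps it low within the thymus, was at 371.0 ± 67.7 and 496.3 ± 55.8 CPM with overlapping groups and was not called (0.42, edgeR adjusted p = 0.0753), but was called without control replicate 1 (0.55, edgeR adjusted p = 0.0384). Epithelial, macrophage, neutrophil and endothelial markers rose beside these genes, and their part was not tested.

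Of 14 partners of CD2, CD5 and CD24 or relatives of CD2, 8 were lower, 3 higher and 3 not called, with a median of -0.80. Cd48, the ligand of CD2 and present on most blood cells, was at 70.5, 74.5 and 92.2 CPM in control and 37.8, 32.5 and 50.8 CPM in RANKL (-0.97 ± 0.20, edgeR adjusted p = 0.00223), without overlap, beside -2.56 for Cd2. The relatives Slamf1 and Ly9 were lower, at -2.26 and -1.77, as were Ubash3a, a suppressor of T cell receptor signalling, at -2.52, and Sh2d1a, the adaptor of that receptor family, at -4.44, or -5.31 without RANKL replicate 3. Cd2ap, an adaptor that binds the tail of CD2 and is also used by epithelium, rose by 1.42 ± 0.24. Cd244 rose by 1.30 ± 0.34, and Cd72, a B cell partner of CD5, by 0.85 ± 0.31, a call that was lost when any library except RANKL replicate 2 was left out (adjusted p from 0.0810 to 0.111).

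**Figure D4:**
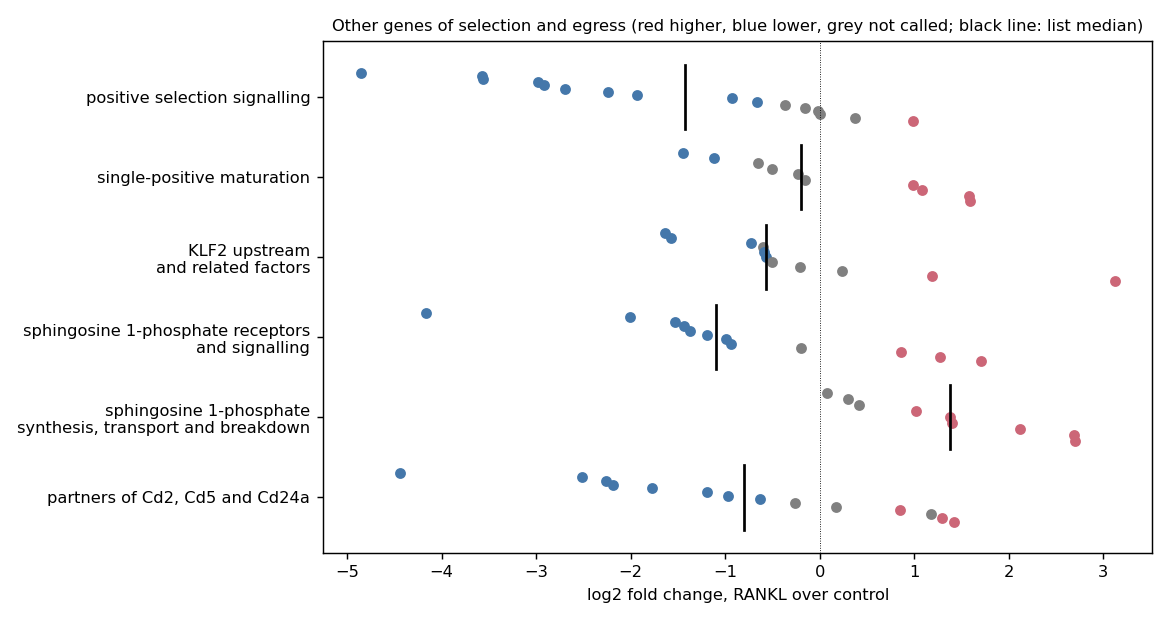
Log2 fold change, RANKL over control (horizontal axis), of each tested gene in the 6 lists of selection and egress, coloured by call, with the list median as a black line. Genes of sphingosine 1-phosphate synthesis, transport and breakdown lie at or above 0, with a median of 1.38, and the other medians lie below 0, the lowest at -1.43 for positive selection signalling.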

How the data were processed

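The libraries were made from 250 ng of RNA with a stranded mRNA kit, per the labels' protocols. The deposited table holds raw read counts per gene for 6 libraries, made by the authors with STAR on mm10, per the submitters' processing notes. The STAR version, counting tool, strand setting and annotation were not given in the sources used here. Libraries were grouped by their genotype labels and columns matched by name. From 24054 genes, filterByExpr kept 16096, which were fitted with edgeR 4.0.16 in R 4.3.3 (TMM factors, robust quasi-likelihood test, Benjamini-Hochberg adjustment, threshold 0.05). No pair of libraries within a group agreed within sampling noise, so none was merged as a duplicate deposit, which does not show that they are separate animals.

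A floor of 3 reads corresponds to 0.122 to 0.161 CPM. Ratios were compared by two-sided exact permutation tests (scipy 1.17.1). Exon lengths came from GENCODE M21. Alternatives used limma 3.58.1 and DESeq2 1.42.0, other scalings and filters, a test against a 1.5-fold change and each library left out. The fit was tested on simulated data. The members and gene lists were chosen with earlier results of these data known. All 8 members are named. From each list up to 4 called genes with the smallest p in each direction are named, plus S1pr4, Ccr7, Foxo1, Egr1, Cd48, Sphk1, Sgpl1 and Il7r, and 1 further gene is not reported here. The 3 nearest profiles of each member are named, from genes whose mean log2 CPM was 1 or more, after adding 0.5 to CPM.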

Additional observations from a re-analysis of the deposited data

How the results depend on the processing

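Each member was recomputed under 17 alternatives. Cd69 (-2.02 to -1.45), Cd5 (-3.45 to -2.71), Itm2a (-3.85 to -3.25) and Cd2 (-2.94 to -2.30) were called lower in all 17. Klf2 (-0.24 to 0.05) and S1pr1 (-0.12 to 0.15) were called in 0 of 17, by edgeR, limma-voom or DESeq2, and both changed sign among them. Nr4a1 (-1.41 to -0.66) lost its call in 6 of 17 and Cd24a (0.39 to 0.77) in 9 of 17, besides the libraries already named with the test against a 1.5-fold change (adjusted p = 0.109 and 0.479), the threshold of 0.01 and, for Cd24a, no filter on low counts (adjusted p = 0.0828) and the title number term. Tested against a 1.5-fold change, 2654 genes were called lower in place of 4765, since that test asks for a larger difference, and 2 in place of 5 in the list upstream of Klf2. At the threshold of 0.01 the counts were 4496 higher and 3390 lower. The median log2 fold change of all genes was 0.11 with no filter and 0.18 in DESeq2, neither of which used the filter, beside -0.02. Against the summed T lineage list 7 of 8 member ratios were higher without overlap, and against double-positive thymocyte genes 8 of 8. The same share over all genes was not computed for these 2 references. Their own medians were -3.22 and -4.80, while only 5% of all genes lay below -1.75. These counts are therefore not shown to be particular to the members. Without control replicate 1 the count against the receptor complex was 7. No paired analysis was possible because the labels give no replicate numbers. A term for the title number range, a different grouping in which 105 holds 1 control library alone, left 9793 genes called. Every member had 258 or more reads in every library. With 3 libraries a group, a change of Klf2 or S1pr1 inside its 95% interval was not excluded.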
